A study of Mus musculus with 8 samples.

Results

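Sorted myeloid cells from sciatic nerves of mice were set side by side for partial sciatic nerve ligation (PSNL), in which part of the nerve is tightly tied, and for sham surgery, in which the nerve is only exposed, 1 week after the operation. The mice were C57BL/6JolaHsd males and females with no transgene, bought by the study at 7 weeks of age, and live CD45+/CD11b+ cells were sorted, with Ly6G+ neutrophils left out at this time. Each animal group carried its own hashtag, an antibody with a DNA barcode that marks every cell of a sample before pooling, and the RNA was read as unique molecular identifiers (UMIs, counts of single RNA molecules) on the 10x platform. The PSNL female, the PSNL male and the sham female were pooled in 1 library. The sham male came from another library, which it shared with cells of crushed nerves.

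Cells were taken when they held at least 500 genes, under 10% mitochondrial UMIs and exactly 1 positive hashtag. This gave 532 cells of the PSNL female, 874 of the PSNL male, 63 of the sham female and 106 of the sham male, that is 1575 cells of the 4391 barcodes in the 2 libraries and of 9133 barcodes in the whole series. Counts were summed per hashtag and compared as 2 samples against 2. How many mice gave the cells behind 1 hashtag is not given in the sources used here, so p-values measure only the spread between hashtag samples. Within sham, sex and library cannot be told apart.

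Macrophages live in every peripheral nerve. Those of the resting nerve carry scavenger and lectin receptors such as the mannose receptor and present antigen on MHC class II. After injury, axons beyond the lesion break down, blood monocytes enter through the opened blood-nerve barrier, and macrophages clear myelin and axon debris, taking on programmes of lipid handling, lysosomal digestion and growth factor release.

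The summed libraries held 2487231 UMIs (PSNL female), 5042525 (PSNL male), 246983 (sham female) and 607505 (sham male), with medians of 3089 to 4920.5 UMIs per cell, so low genes were least certain in sham. In the PSNL library 28.9% and in the crush library 26.9% of barcodes carried several hashtags and were left out, and the libraries shared 1 barcode. Xist, the RNA that silences an X chromosome, stood at 779 and 1383 CPM in the PSNL and sham females and at 1.43 and 0 CPM in the PSNL and sham males, so sex matched the hashtags. Gm42418 (chromosome 17, 39846958 to 39848788, GRCm38), a transcript over ribosomal DNA that tracks RNA quality, took 18.5% of UMIs in the sham female and 9.70 to 12% in the other samples. Mitochondrial transcripts made up 4.01 and 4.10% after sham and 2.31 and 2.34% after PSNL. Cells with at least 3 of 10 neutrophil markers and at least 1% of their UMIs in S100a8 and S100a9 were called neutrophil-like, and despite the sort they made up 27.8% of the PSNL female (148 cells), 13.8% of the PSNL male (121 cells), 1.59% of the sham female (1 cell) and 10.4% of the sham male (11 cells). Cells outside that class with at least 3 of 9 macrophage markers were called macrophage-like, and they were 49.4% and 59.6% of the PSNL samples and 79.4% and 63.2% of the sham samples. That cut has no gap in it, with 159 of the 1575 cells exactly at 3 markers and 149 at 2.

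At 1 week the macrophage receptors Cd163, Lyve1 and Mgl2 of the sham nerve were at or near 0 in the sum of PSNL cells, and genes of lipid handling, hypoxia, inflammation and interferon response stood high. Of 8630 genes tested, 328 were higher after PSNL (3.8% of the genes tested) and 227 were lower (2.63%) at an adjusted p under 0.05, or 6.43% in either direction, while the median log2 change over all genes was 0.00. In each of the 555 called genes both PSNL samples lay on 1 side of both sham samples, as they did in 28.7% (higher) and 26.3% (lower) of all genes tested. In these sums, fewer cells of a type and less RNA per cell cannot be told apart. The calls rest on the sham male: without it no gene was called by edgeR. DESeq2 called 251 higher and 172 lower, but it was run only on all 4 samples and not without the sham male. Without the PSNL male 276 were higher and 119 lower, and without the sham female 571 were higher and 433 lower. Of the 555 calls, 302 (208 higher and 94 lower) were kept in each of the 3 fits that left out 1 of the samples other than the sham male. With the crush samples added and library as a term, 46 of 9800 genes were called higher (0.469%) and 49 lower (0.5%), together 0.969%. In that fit all PSNL cells share their library with the sham female. Its PSNL change therefore sets both PSNL samples against the sham female alone. The sham male serves there only to set the library difference, wherever library is a term below. Each gene called among the 4 samples had the same direction in every alternative in which it was tested. For fits without a sample or with library as a term this was largely fixed in advance, and it is no separate support. Both PSNL samples of every called gene already lay on 1 side of both sham samples. The other fits drew on largely the same cells.

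Values are CPM, UMI counts scaled to a common library total after TMM adjustment, and each pair gives the female first. Levels were lowest where a gene had no UMI in a group, and there the fold is bounded by taking 3 UMIs over the group as the limit that a count of 0 allows, for counting error only.

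**Figure D1:**
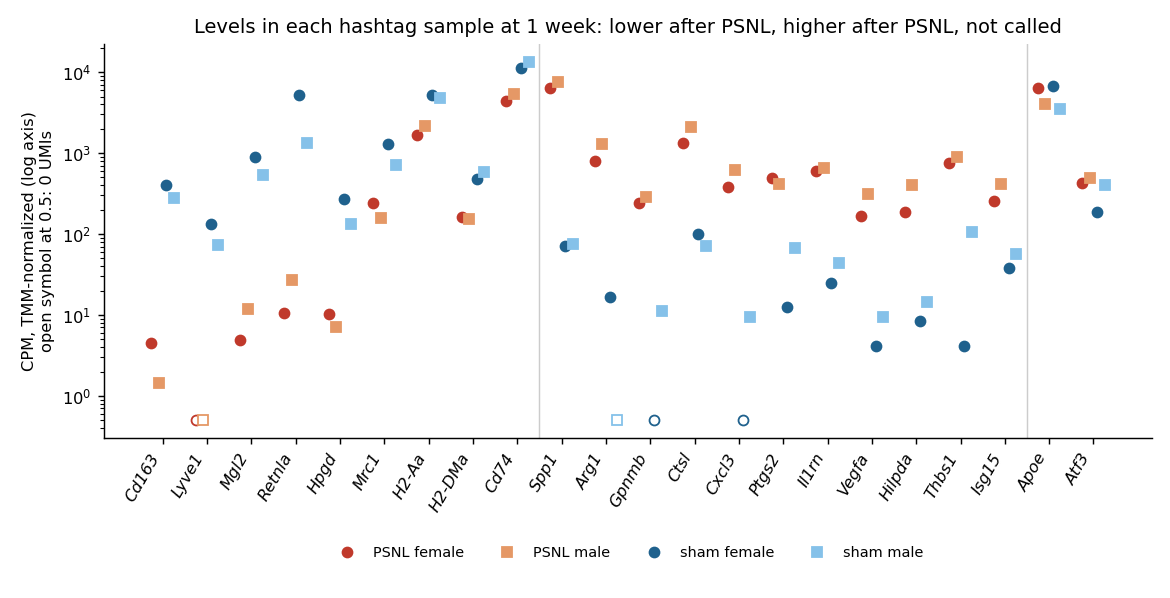
Level in each hashtag sample (CPM, log axis) of 9 genes called lower after PSNL, 11 called higher and 2 not called. Circles are females and squares males, red and orange PSNL, dark and light blue sham, and open symbols mark 0 UMIs. Both PSNL samples lie below both sham samples for every gene of the left block and above them for every gene of the middle block, while the samples of Apoe interleave.

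Genes of resident nerve macrophages were mostly lower. Of 24 tested members, 17 were lower and 2 higher after PSNL (median log2 change -1.93), and 13 of the 17 were kept in the 3 fits named above. Cd163, the scavenger receptor for haemoglobin bound to haptoglobin, stood at 4.5 and 1.43 CPM after PSNL and at 402 and 277 CPM after sham. That is a log2 change of -7.00 ± 0.44 (SE, adjusted p = 0.000258), and the groups were far apart in both sexes. Lyve1, a hyaluronan receptor of macrophages along vessels, had no UMI in either PSNL sample and 134 and 72.9 CPM after sham, so it was at least 229-fold lower (adjusted p = 0.000762). The lectin Mgl2 stood at 4.90 and 12 CPM after PSNL against 901 and 542 CPM after sham (log2 change -6.30 ± 0.45, adjusted p = 0.000635).

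Mrc1, the mannose receptor CD206, was lower but still present, with 241 and 160 CPM after PSNL and 1295 and 711 CPM after sham (log2 change -2.32 ± 0.34, adjusted p = 0.00742). The prostaglandin-degrading enzyme Hpgd fell by 4.48 on the log2 scale (adjusted p = 0.00117), from 268 and 131 CPM after sham to 10.2 and 7.12 CPM. Gas6, which bridges dying cells to the receptors that engulf them, went from 243 and 122 CPM to 20 and 11.2 CPM (adjusted p = 0.0027), and the growth factor binding protein Igfbp4 from 138 and 96.6 CPM to 18.0 and 12.4 CPM (adjusted p = 0.002). In these genes the sham female was the highest sample and both PSNL samples were low. The transcription factor Maf was lower (445 and 435 against 1383 and 798 CPM, adjusted p = 0.0314). Pf4, a platelet-type chemokine of resident macrophages, stood at 1077 and 1569 CPM after PSNL and 1543 and 800 CPM after sham and overlapped between the groups (adjusted p = 0.794). With library as a term 12 members stayed lower, Cd163, Mgl2 and Hpgd at adjusted p = 0.00836 each, and none was higher.

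Beyond the lists, the falls of largest size included several genes of the same order. Il1rl1, the receptor for the alarmin IL-33, stood at 2.86 and 3.05 CPM after PSNL and 92.2 and 47.5 CPM after sham (log2 change -4.39 ± 0.43, adjusted p = 0.00153). The tetraspanin Cd81 was at 19.2 and 19.3 CPM against 277 and 306 CPM (log2 change -3.92 ± 0.23, adjusted p = 0.000252), with replicates of each group nearly level. Fgfr1, a fibroblast growth factor receptor, was at 6.54 and 5.70 CPM against 113 and 120 CPM (adjusted p = 0.000258). Sult1a1, Ccl17, Hspb1, Serpinf1, Cmah, Bank1 and Abca9 completed the 15 largest falls, with log2 changes from -4.80 to -3.68. These ranks, and those of the 15 largest rises below, cover only called genes with a mean of at least 50 CPM in the higher group. Some called genes at lower levels fell by more than several of these, such as Cd226 (log2 change -4.97).

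Alternative activation genes, which answer to interleukin 4 in macrophages, did not move as 1 group. Of 11 tested members, 5 were lower and 2 higher (median log2 change -0.71). Retnla, a secreted resistin-like protein, went from 5168 and 1338 CPM after sham to 10.6 and 26.9 CPM after PSNL (log2 change -7.38 ± 0.75, adjusted p = 0.00186), with the sham female far above the sham male. The ribonuclease Ear2 (8.17 and 11 against 33.5 and 93.4 CPM, adjusted p = 0.00675) and the lectin Clec10a (46.6 and 68.2 against 189 and 287 CPM, adjusted p = 0.00591) were lower as well, along with Mrc1 and Mgl2. Arg1, the arginase that turns arginine into ornithine, went the other way. It stood at 803 and 1301 CPM after PSNL, at 16.8 CPM in the sham female and at 0 in the sham male, which were 8356 UMIs against 4 (log2 change 7.73 ± 0.74, adjusted p = 0.00147). Ccl24, an eosinophil attractant, was the other member higher after PSNL (128 and 118 against 62.9 and 53.8 CPM, adjusted p = 0.0331), a call lost without either PSNL sample (adjusted p = 0.119 and 0.106). The lipoxygenase Alox15 was below the filter on low counts.

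MHC class II genes were lower as a block. These encode the paired chains that show peptides to helper T cells and the machinery that loads them. Of 10 members, all tested, 8 were lower and 0 higher (median log2 change -1.33), and the remaining members H2-Oa and H2-Ob had log2 changes of -1.10 and -1.35 without passing. The chain gene H2-Aa stood at 1687 and 2178 CPM after PSNL and 5286 and 4793 CPM after sham (log2 change -1.38 ± 0.20, adjusted p = 0.00707). Cd74, the invariant chain that escorts class II to the endosome, was at 4411 and 5303 CPM against 11146 and 13391 CPM (log2 change -1.34 ± 0.18, adjusted p = 0.00564). The loading factor H2-DMa (161 and 154 against 474 and 581 CPM, adjusted p = 0.0046) and H2-DMb2 (15.9 and 21 against 92.2 and 99.8 CPM, adjusted p = 0.0023) had the lowest adjusted p of the list. In these genes both PSNL samples lay below both sham samples. Ciita, the co-activator that switches the class II genes on, was at 66.6 and 74.5 against 126 and 181 CPM (adjusted p = 0.0278), and its call and that of H2-DMb1 were lost without the PSNL male (adjusted p = 0.0766 and 0.105). With library as a term H2-DMa and H2-DMb2 kept their calls.

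Class II promoters carry a conserved set of boxes, 1 of them a CCAAT box, written ATTGG on the other strand, which nuclear factor Y binds. In RefSeq promoters (GRCm38.p6, 250 bases before to 50 after the start) 7 of the 10 members were matched, and 7 of their 8 promoters held CCAAT or ATTGG, the same box read on either strand, as did 37.4% of 32851 promoters of all genes. Windows of 60 bases before the start are shown for 4 members called lower, with the motif in capitals, because they show the same box in genes that fell together.

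H2-Aa, chr17:34287840-34287899, minus strand: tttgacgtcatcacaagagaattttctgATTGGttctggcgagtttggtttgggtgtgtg
H2-Eb1, chr17:34305804-34305863, plus strand: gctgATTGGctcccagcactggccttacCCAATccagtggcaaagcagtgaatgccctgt
H2-DMb1, chr17:34153102-34153161, plus strand: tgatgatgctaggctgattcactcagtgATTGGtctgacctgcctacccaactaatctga
H2-DMb2, chr17:34145131-34145190, plus strand: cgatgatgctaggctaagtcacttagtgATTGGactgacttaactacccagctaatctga

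H2-DMb1 and H2-DMb2 are related neighbouring genes, and reads of such copies can be split between them in counting. A match is a description of letters and shows no binding.

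**Figure D2:**
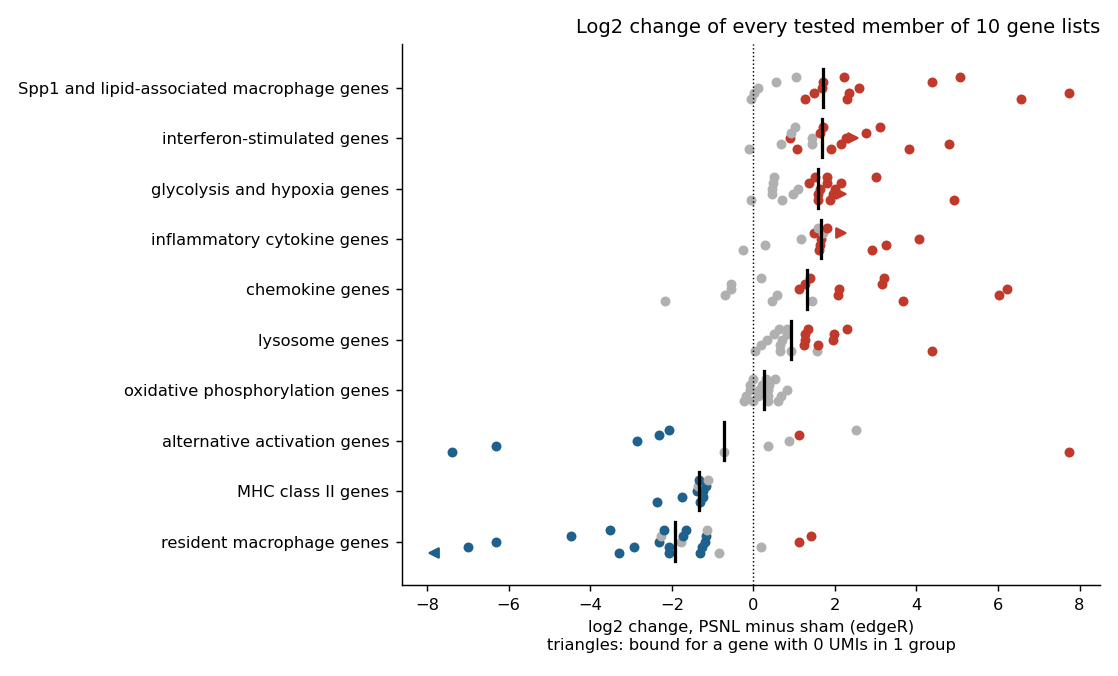
Log2 change (PSNL minus sham) of every tested member of 10 gene lists, 1 point per gene, red for members called higher, blue for members called lower and grey for members not called. Black bars are list medians, the dotted line is the median of all genes, and triangles give the bound for genes without a UMI in 1 group. MHC class II genes lie left of the dotted line and oxidative phosphorylation genes on both sides of it.

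The genes of Spp1 and lipid-associated macrophages, a state found in several injured and degenerating tissues, stood high after PSNL. Of 17 tested members, 12 were higher and 0 lower (median log2 change 1.70). Spp1, which encodes the secreted adhesion protein osteopontin, had the lowest adjusted p of all its list. It stood at 6333 and 7481 CPM after PSNL and at 71.3 and 74.4 CPM after sham, a log2 change of 6.56 ± 0.24 (adjusted p = 1.14e-05). Within each group the sexes were nearly level, against a difference of about 94.4-fold between groups. Gpnmb, a glycoprotein of lipid-laden macrophages, was at 242 and 290 CPM against 0 and 11.1 CPM (log2 change 5.07 ± 0.47, adjusted p = 0.00118).

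Lgals3, which encodes galectin-3, a lectin that senses damaged vesicles, was at 3106 and 4714 CPM after PSNL and 763 and 786 CPM after sham (log2 change 2.34 ± 0.24, adjusted p = 0.002). The lipid droplet coat Plin2 (662 and 822 against 105 and 136 CPM, adjusted p = 0.00174), the lipid receptor Trem2 (285 and 333 against 105 and 88.7 CPM, adjusted p = 0.00619) and the tetraspanin Cd9 (706 and 1012 against 143 and 217 CPM, adjusted p = 0.00508) were higher too. Fabp5, a fatty acid carrier, rose by less over all cells, from 310 and 708 CPM to 1456 and 1439 CPM (log2 change 1.48 ± 0.34, adjusted p = 0.0395). Not every gene of this state moved. Apoe, the main lipoprotein of macrophages, stood at 6368 and 4029 CPM after PSNL and 6790 and 3516 CPM after sham (log2 change 0.01 ± 0.32), with females above males in both groups. Lpl (log2 change -0.05 ± 0.38), which frees fatty acids from lipoproteins, and Itgax (0.12 ± 0.35), which encodes CD11c, were close to 0 as well. With library as a term 6 of the 12 stayed called, Spp1 at adjusted p = 0.0329.

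Lysosomal and cholesterol genes followed in part. Lysosome genes had 9 of 21 tested members higher and 0 lower (median log2 change 0.93). Lysosomal genes outside this list were not all in this direction, with Arsb (log2 change -1.96) and Naaa (-0.99) called lower. Cathepsin L, Ctsl, was at 1342 and 2104 CPM after PSNL and 101 and 71.3 CPM after sham (log2 change 4.37 ± 0.33, adjusted p = 0.000635). Ctsd (1364 and 1224 against 180 and 331 CPM, adjusted p = 0.0046) and Ctsb (3363 and 3352 against 1278 and 980 CPM, adjusted p = 0.00508) were higher by less, and Hexa, a hexosaminidase subunit, had a log2 change of 0.04 without passing. Ctsk, a collagen-cutting cathepsin better known from bone and among the 15 largest rises, had 978 UMIs after PSNL and 2 after sham, a ratio of levels of 55.5 (95% counting interval 15.3 to 459). With library as a term 1 lysosome member stayed called.

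Among cholesterol genes 6 of 13 were higher and 1 lower (median log2 change 0.95). With library as a term 0 of the 14 members tested in that fit were called by edgeR, with 8 at an unadjusted p under 0.05. Abca1, which exports cholesterol, was at 345 and 354 CPM against 109 and 103 CPM (log2 change 1.73 ± 0.23, adjusted p = 0.00493), and Soat1, which stores it as ester, at 205 and 210 CPM against 67.1 and 61.8 CPM (adjusted p = 0.00567). Srebf2, the master regulator of synthesis, was lower (34.3 and 35.8 against 75.4 and 69.7 CPM, adjusted p = 0.0428), a call lost without either PSNL sample (adjusted p = 0.144 and 0.145). Hmgcs1, an enzyme of synthesis, had a log2 change of -0.58 and did not pass.

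Phagocytosis receptors moved in both directions, with 5 of 19 higher and 3 lower (median log2 change 0.47), and with library as a term 0 higher and 1 lower. The scavenger receptor Msr1 was at 238 and 256 CPM after PSNL against 62.9 and 44.3 CPM after sham (log2 change 2.28 ± 0.26, adjusted p = 0.0027), and the antibody receptor Fcgr1 (CD64) at 237 and 243 against 50.3 and 50.7 CPM (adjusted p = 0.002). Olr1, a receptor for oxidised lipoprotein, had 351 UMIs after PSNL and 0 after sham, at least 13.3-fold higher. The bridging proteins Gas6 and Pros1 and the receptor Stab1 were the 3 lower members, Stab1 losing its call without the PSNL male (adjusted p = 0.0656), while the engulfment receptor Mertk had a log2 change of -0.25 ± 0.30.

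Complement genes were split as well (4 higher and 3 lower of 13, median log2 change 0.10), and with library as a term 0 were higher and 1 lower. The central component C3 had 598 UMIs after PSNL and 2 after sham, a ratio of 33.9 (95% counting interval 9.35 to 281). C1qa and C1qc of the first component were lower (adjusted p = 0.0378 and 0.0416), calls that were lost without the PSNL male (adjusted p = 0.109 each).

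**Figure D3:**
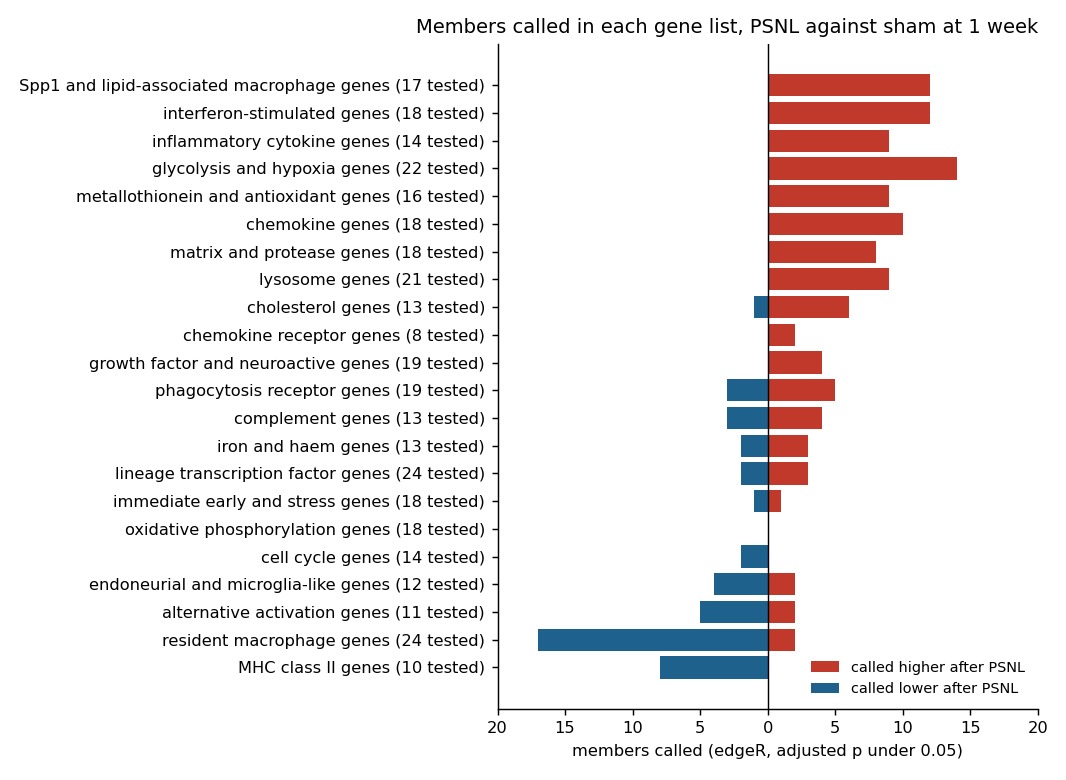
Members of 22 gene lists called higher (red, to the right) and lower (blue, to the left) after PSNL by edgeR at an adjusted p under 0.05, with the number tested beside each list name. Resident macrophage genes had 17 members lower and glycolysis and hypoxia genes 14 higher, and the nuclear oxidative phosphorylation genes had none in either direction.

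Inflammatory genes stood higher in part. Of 14 tested members, 9 were higher and 0 lower (median log2 change 1.65). Il1rn, the natural blocker of the interleukin-1 receptor, was at 595 and 658 CPM after PSNL and 25.1 and 44.3 CPM after sham (log2 change 4.06 ± 0.30, adjusted p = 0.000635). Ptgs2, the inducible cyclooxygenase that feeds prostaglandin synthesis, was at 494 and 412 CPM against 12.6 and 68.1 CPM (log2 change 3.24 ± 0.45, adjusted p = 0.00619). Cd14, the co-receptor for bacterial lipid, was at 947 and 928 CPM against 122 and 127 CPM (log2 change 2.91 ± 0.23, adjusted p = 0.000762). In each of the 3 genes both PSNL samples lay far above both sham samples. Scaled to plain totals, neutrophil-like cells held 1607 CPM of Il1rn and 1553 CPM of Ptgs2, against 462 and 279 CPM in the other cells. On that scale, Il1rn in macrophage-like cells was at 443 and 655 CPM after PSNL and 21.1 and 25.5 CPM after sham. Ptgs2 was there at 236 and 382 against 5.27 and 53.4 CPM.

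Tnf, the cytokine that sensitises nociceptors, was at 78.1 and 95.5 CPM against 16.8 and 28.5 CPM (log2 change 1.81 ± 0.32, adjusted p = 0.0147), and without the neutrophil-like cells its adjusted p was 0.0649. Il1a had 117 UMIs after PSNL and 0 after sham, at least 4.43-fold higher, and it too lost its call without those cells (adjusted p = 0.0563) and without the PSNL female (adjusted p = 0.0557). Il1b, the agonist that Il1rn opposes, was at 1694 and 1148 CPM against 184 and 733 CPM and was not called (adjusted p = 0.106). The inhibitors of NF-kB signalling Nfkbia (log2 change 1.64 ± 0.32, adjusted p = 0.0205) and Tnfaip3 (1.66 ± 0.32, adjusted p = 0.0195) were higher, while Nfkb1 itself had a log2 change of -0.25 ± 0.28. Il6, Il10, Il12b, Il23a, Nos2 and Ptges were below the filter.

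Chemokines, which draw leukocytes into tissue, had 10 of 18 tested members higher and 0 lower (median log2 change 1.33), 9 of them also without the neutrophil-like cells. Several attractants of neutrophils were among them. Cxcl3 was at 376 and 626 CPM after PSNL against 0 and 9.50 CPM after sham (log2 change 6.21 ± 0.56, adjusted p = 0.00117), and Cxcl2 at 4670 and 4928 against 151 and 889 CPM (log2 change 3.17 ± 0.62, adjusted p = 0.0214). Cxcl1 had 1198 UMIs after PSNL and 2 after sham, a ratio of 68.0 (95% counting interval 18.8 to 562). Of the monocyte attractants, Ccl2 was at 187 and 398 against 41.9 and 83.9 CPM (adjusted p = 0.0262) and Ccl7 at 91.5 and 174 against 4.19 and 19.0 CPM (adjusted p = 0.0111). Ccl17, a chemokine outside this list and among the largest falls above, was lower (log2 change -4.26 ± 0.53, adjusted p = 0.00404).

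Ccl3 was at 264 and 316 against 71.3 and 68.1 CPM (log2 change 2.07 ± 0.24, adjusted p = 0.00316). Without the neutrophil-like cells its log2 change was 1.30 and its adjusted p 0.0628. Ccl4 was at 569 and 733 CPM after PSNL and 725 and 182 CPM after sham, so that the sham female lay inside the PSNL range (adjusted p = 0.569), yet within macrophage-like cells it was at 255 and 492 against 71.9 and 124 CPM (log2 change 1.85 ± 0.38, adjusted p = 0.0193). Ccr2, the monocyte receptor for Ccl2, showed 462 and 323 CPM after PSNL and 398 and 386 CPM after sham (log2 change 0.00 ± 0.24), and Cx3cr1, the fractalkine receptor, a log2 change of -0.07 ± 0.39. Of 8 chemokine receptors tested, Ccr1 and Ccrl2 were higher (adjusted p = 0.0282 and 0.018) and 0 lower (list median 0.77).

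Glycolysis and hypoxia genes had 14 of 22 tested members higher and 0 lower (median log2 change 1.58). Cells short of oxygen keep the factor HIF-1 and with it switch on glucose uptake, glycolysis and vessel growth signals. Vegfa, the vascular growth factor, was at 167 and 316 CPM after PSNL and 4.19 and 9.50 CPM after sham (log2 change 4.92 ± 0.52, adjusted p = 0.00211). Hilpda, a lipid droplet protein induced by hypoxia that is no member of the list but was among the 15 largest rises, was at 189 and 401 CPM against 8.38 and 14.3 CPM (log2 change 4.56 ± 0.52, adjusted p = 0.0027). In both genes the PSNL male was above the PSNL female, and both lay well above sham.

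Bnip3, which marks mitochondria for removal, was at 93.2 and 89.8 CPM against 8.38 and 12.7 CPM (log2 change 3.00 ± 0.34, adjusted p = 0.00257). Slc2a1, the glucose transporter GLUT1, was at 68.3 and 67.2 CPM against 8.38 and 20.6 CPM (adjusted p = 0.0147). Hif1a itself was at 331 and 356 CPM against 88.0 and 133 CPM (adjusted p = 0.0106), and Egln3, the oxygen sensor that tags HIF for destruction, had 117 UMIs after PSNL and 0 after sham, at least 4.43-fold higher, and was below the filter without either PSNL sample. Among glycolytic enzymes Pgk1, Pgam1, Pkm, Tpi1 and Pfkl were called higher with log2 changes from 1.37 to 1.89 (Pfkl at adjusted p = 0.147 without the PSNL male), whereas Ldha (0.98 ± 0.27, adjusted p = 0.0707) and Gapdh (1.08 ± 0.32, adjusted p = 0.0822) did not pass. The aldolase gene Aldoa shares its symbol between 2 rows of the gene table and is not counted among the 22, and its row with UMIs was higher as well (Aldoa_ENSMUSG00000030695, log2 change 1.73 ± 0.29, adjusted p = 0.0116). The hexokinases Hk1 and Hk2 had log2 changes of 0.45 and 0.46. Oxidative phosphorylation genes of the nucleus, which make part of the respiratory chain, had 0 of 18 tested members called in either direction by edgeR (median log2 change 0.26). At an unadjusted p under 0.05 there were 3 (Sdhb, Uqcrq and Cycs), beside 1931 of all 8630 genes tested. DESeq2 called 0, and Uqcrq had a log2 change of 0.83 at adjusted p = 0.0623 in edgeR. Genes of the chain encoded by mitochondrial DNA are not in that list and were examined after their values were seen. Of 13 tested, 7 were lower and 0 higher, with log2 changes from -1.07 (mt-Nd2, adjusted p = 0.0207) to -0.75 (mt-Co3, adjusted p = 0.0297) among the 7. All 7 were called again within macrophage-like cells, 5 without the PSNL female, 4 without the PSNL male, 5 without the sham female and 0 with library as a term.

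HIF binds the core letters ACGTG, or CACGT on the other strand. RefSeq held promoters for 22 of the 24 members, and 18 of their 31 promoters had the core, as did 19.6% of all promoters of the same length. Windows of 60 bases before the start are shown for 3 members called higher and for Ldha, which did not pass, with each core in capitals, because they show the letters that these genes share.

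Bnip3, chr7:138909582-138909641, minus strand: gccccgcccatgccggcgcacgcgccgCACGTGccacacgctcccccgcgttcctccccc
Egln3, chr12:54204065-54204124, minus strand: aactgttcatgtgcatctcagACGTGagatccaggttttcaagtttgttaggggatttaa
Pgk1, chrX:106186941-106187000, plus strand: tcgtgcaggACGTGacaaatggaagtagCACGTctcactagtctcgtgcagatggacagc
Ldha, chr7:46845742-46845801, plus strand: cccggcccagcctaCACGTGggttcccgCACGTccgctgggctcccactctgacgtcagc

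The core is short and part of the E-box letters CACGTG that other factors bind, and Tpi1 and Pfkl, both called higher, had none in their windows.

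Metallothionein and antioxidant genes had 9 of 16 tested members higher and 0 lower (median log2 change 1.69). Prdx1, which removes peroxide, was at 1086 and 2098 CPM after PSNL and 285 and 326 CPM after sham (log2 change 2.37 ± 0.33, adjusted p = 0.00605). Txn1 (thioredoxin, 1004 and 1654 against 226 and 310 CPM, adjusted p = 0.00508), Gclm, a subunit of the enzyme that starts glutathione synthesis (65.4 and 85.1 against 12.6 and 12.7 CPM, adjusted p = 0.00619), and the cystine importer Slc7a11 (372 and 267 against 12.6 and 88.7 CPM, adjusted p = 0.0269) were higher. The metallothioneins, which bind zinc, did not share this: Mt1 was at 226 and 255 CPM after PSNL and at 222 and 724 CPM after sham (adjusted p = 0.215), and Mt2 at 18.4 and 23.6 against 4.19 and 80.8 CPM (adjusted p = 0.214). In both the sham male stood above the other samples. With library as a term 2 of the 9 stayed called.

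Iron genes included the ferritin subunits, which store iron. The heavy chain Fth1 was at 11724 and 14831 CPM after PSNL and 3198 and 4020 CPM after sham (log2 change 1.88 ± 0.20, adjusted p = 0.002), and the light chain Ftl1 at 3931 and 4950 against 1618 and 2472 CPM (adjusted p = 0.0323). The lysosomal iron exporter Slc11a1 was higher as well (adjusted p = 0.0063). Lower were Cd163 and the plasma ferroxidase Cp (6.13 and 3.05 against 58.7 and 23.8 CPM, adjusted p = 0.0171), so that 3 of 13 members were higher and 2 lower (list median 0.53). Hmox1, which breaks down haem, had a log2 change of 0.69 ± 0.27 (adjusted p = 0.165).

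Matrix and protease genes had 8 of 18 tested members higher and 0 lower (median log2 change 1.66). Genes of this kind outside the list were not all in this direction. Adam33 (log2 change -5.67), Htra3 (-3.29), Adam19 (-2.88) and the collagen gene Col14a1 (-1.84) were called lower. Mmp14, a membrane-bound collagenase, was at 182 and 251 CPM after PSNL against 12.6 and 6.34 CPM after sham (log2 change 4.72 ± 0.40, adjusted p = 0.0011). Thbs1, the matrix protein thrombospondin-1, was at 758 and 886 CPM against 4.19 and 105 CPM, with sham samples far apart (log2 change 3.65 ± 0.64, adjusted p = 0.0144). Fn1 (fibronectin, 1559 and 2361 against 537 and 698 CPM, adjusted p = 0.0103), Vcan (versican, 97.3 and 143 against 4.19 and 17.4 CPM, adjusted p = 0.00619) and Timp1, an inhibitor of matrix proteases (69.5 and 97.9 against 0 and 6.34 CPM, adjusted p = 0.00508), were higher. Mmp9 had a log2 change of -0.07 ± 0.40, and Mmp12 was at 356 and 782 against 8.38 and 215 CPM without passing (adjusted p = 0.135). Cav1, the coat protein of caveolae and among the 15 largest rises, had 702 UMIs after PSNL and 0 after sham, at least 26.6-fold higher. Pdpn, a mucin-like ligand of platelets, had 1854 UMIs against 3, a ratio of 70.1 (95% counting interval 24 to 340).

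Growth factors and mediators that act on neurons had 4 of 19 tested members higher and 0 lower (median log2 change 1.59). These were Vegfa, Tnf, Ptgs2 and Sema4d, a semaphorin (113 and 122.95 against 25.1 and 33.3 CPM, adjusted p = 0.0063). Bdnf, Il34, Hbegf and Fgf2 were below the filter. Growth factor genes outside this list went both ways, with Kitl (log2 change -3.55), Ndnf (-2.95) and Wnt11 (-2.35) called lower and Gdf3 called higher. Osm, a cytokine of the interleukin-6 family, was at 112 and 141 CPM against 0 and 58.6 CPM and was not called in all cells (adjusted p = 0.121), but it was called without the neutrophil-like cells (log2 change 2.69, adjusted p = 0.0314). Csf1, the macrophage growth factor, was at 128 and 93.4 against 4.19 and 55.4 CPM (log2 change 1.52 ± 0.51, adjusted p = 0.115), and in macrophage-like cells its log2 change was -0.31 ± 0.51. Tgfb1 (0.10 ± 0.21) and the purinergic receptor P2rx4 (0.18 ± 0.23) had log2 changes near 0.

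Interferon-stimulated genes had 12 of 18 tested members higher and 0 lower (median log2 change 1.67). Rsad2, the antiviral enzyme viperin, was at 116 and 113 CPM after PSNL and 8.38 and 7.92 CPM after sham (log2 change 3.82 ± 0.35, adjusted p = 0.00117). The transcription factor Irf7 was at 113 and 180 against 12.6 and 19.0 CPM (log2 change 3.11 ± 0.39, adjusted p = 0.00449) and the ubiquitin-like Isg15 at 254 and 420 against 37.7 and 57.0 CPM (log2 change 2.75 ± 0.35, adjusted p = 0.00432). Ifit2 had 144 UMIs after PSNL and 0 after sham, at least 5.45-fold higher. Not called were Gbp2, at a log2 change of -0.11 ± 0.35, and Cxcl10, at 1.45 ± 0.77 with overlapping samples. Of these 12, 0 stayed called by edgeR with the crush samples added, with or without library as a term, although the direction of the 12 was the same. Of the 20 members tested there, 3 had an unadjusted p under 0.05 without library as a term and 0 with it. Without library as a term 2020 of all 9800 genes tested had such a p. DESeq2 on the 4 samples called 10. The call of Ifit2 could not be tested without the PSNL male, where it fell below the filter.

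Among genes of quick responses 2 of 18 were called and among genes of division 2 of 14, beside 6.43% of all genes tested. Of 18 immediate early and stress genes, Ier3 was higher (727 and 1160 against 50.3 and 287 CPM, adjusted p = 0.0459) and the heat shock co-chaperone Dnajb1 lower (99.3 and 95.5 against 369 and 245 CPM, adjusted p = 0.00896), with a list median of 0.46. Atf3, a stress factor best known from injured neurons, was at 430 and 489 CPM after PSNL and 189 and 402 CPM after sham, a log2 change of 0.60 ± 0.32 that did not pass (adjusted p = 0.325). Of 14 cell cycle genes 0 were higher and 2, Mcm5 and Ccnb2, lower (median -0.94), both calls lost without either PSNL sample (lowest adjusted p 0.344). Mki67, which marks cycling cells, was at 13.5 and 25.4 CPM against 37.7 and 50.7 CPM (adjusted p = 0.109).

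Lineage transcription factors were mostly level, with 3 of 24 higher (among them Cebpb and Nr1h3, the latter at adjusted p = 0.167 without the PSNL male), 2 lower (Maf and Batf3) and a median of 0.22. Spi1, the PU.1 factor of all myeloid cells, had a log2 change of 0.34 ± 0.21, and Cebpb, a factor of inflammatory macrophages, was at 1365 and 1490 against 314 and 646 CPM (adjusted p = 0.0262). Genes shared by endoneurial macrophages and microglia went both ways (2 higher and 4 lower of 12, median -0.65). Siglech (2.86 and 2.04 against 41.9 and 22.2 CPM, adjusted p = 0.00675), Fcrls (55.2 and 25.9 against 302 and 252 CPM, adjusted p = 0.00455) and the lysophospholipid receptor Gpr34 (13.1 and 7.74 against 180 and 33.3 CPM, adjusted p = 0.0322) were lower. Trem2 and Tmem119 were higher, the latter with 156 UMIs against 0 (at least 5.90-fold) and at adjusted p = 0.116 without the PSNL male.

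Markers of the cells in the sort were checked beside these results. Monocyte markers had 6 of 8 members higher and 0 lower (median log2 change 2.60), with a summed level, scaled to plain totals, of 3690 and 4539 CPM after PSNL and 931 and 1475 CPM after sham. Ly6c2, which marks classical monocytes, was at 181 and 202 CPM after PSNL against 8.38 and 25.3 CPM after sham (log2 change 3.25 ± 0.35, adjusted p = 0.00224), and Plac8 at 410 and 575 against 4.19 and 122 CPM (adjusted p = 0.0467). The members Ccr2 and Chil3 were not called, and Ccr2 was near level, as given with the chemokine receptors. Thbs1, 1 of the 6, stood at 1570 CPM in neutrophil-like cells (plain totals) against 669 CPM in all other cells. Neutrophil markers summed to 14466 and 4964 CPM after PSNL and to 522 and 3753 CPM after sham. The PSNL female was far above and the sham female far below the males, and 1 of 10 markers, Hdc, was called (adjusted p = 0.0498, and 0.385 without the neutrophil-like cells). Stfa2l1 and Gm5483, both among the 15 largest rises (log2 change 4.66 and 4.32), could not be tested without those cells because they fell below the filter.

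Macrophage markers were split, with 3 of 10 higher (Fcgr1 and Cd14 among them) and 3 lower (Csf1r, whose call was lost without any 1 sample, and C1qa and C1qc) at summed levels of 4719 and 4346 CPM after PSNL and 5972 and 4336 CPM after sham. Dendritic cell markers summed to 312 and 281 CPM against 283 and 762 CPM, with 1 of 6 tested members lower (Siglech), and B cell markers to 53.1 and 32.7 against 211 and 107 CPM, with Ighm lower (adjusted p = 0.0159). Eosinophil, mast cell, T and NK cell and erythrocyte markers summed to at most 27.8 CPM in any sample, with Epx, Cma1, Cpa3, Gzma, Ncr1 and Alas2 at 0 in all 4. Fibroblast markers reached 97.8 CPM in the PSNL male and 11.5 to 18.5 CPM elsewhere, endothelial markers 4.05 to 43.8 CPM, and Schwann cell markers 95.5 to 178 CPM with Sox10 at 0. Of 2 markers tested for each of fibroblasts, endothelial cells and Schwann cells, 0 were called by edgeR or DESeq2, and Col1a1 and Kdr had an unadjusted p under 0.05. The part of these cells in the results of the gene lists was not tested, apart from the fits without neutrophil-like cells and within macrophage-like cells.

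With the neutrophil-like cells left out, 448 genes were higher (5.4% of 8301) and 326 lower (3.93%), together 9.32%, and 530 of the 555 calls were made again. Within macrophage-like cells 496 genes were higher (6.41% of 7734) and 413 lower (5.34%), and 492 of the calls were made again. The 313 list members compared each had more than 3 UMIs in each group over all cells, and UMIs in both groups among macrophage-like cells. Of them, 137 were called in all cells. The sign in macrophage-like cells was the same in 137 of these, and 131 were called there. Resident macrophage genes there were 18 lower and 2 higher of 23 tested, MHC class II genes 8 lower of 8, Spp1 and lipid genes 12 higher of 17, lysosome genes 14 higher of 21, and glycolysis and hypoxia genes 16 higher of 22. Since Csf1r, Fcgr1 and C1q genes helped to define the class, their values within it are not independent of it.

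**Figure D4:**
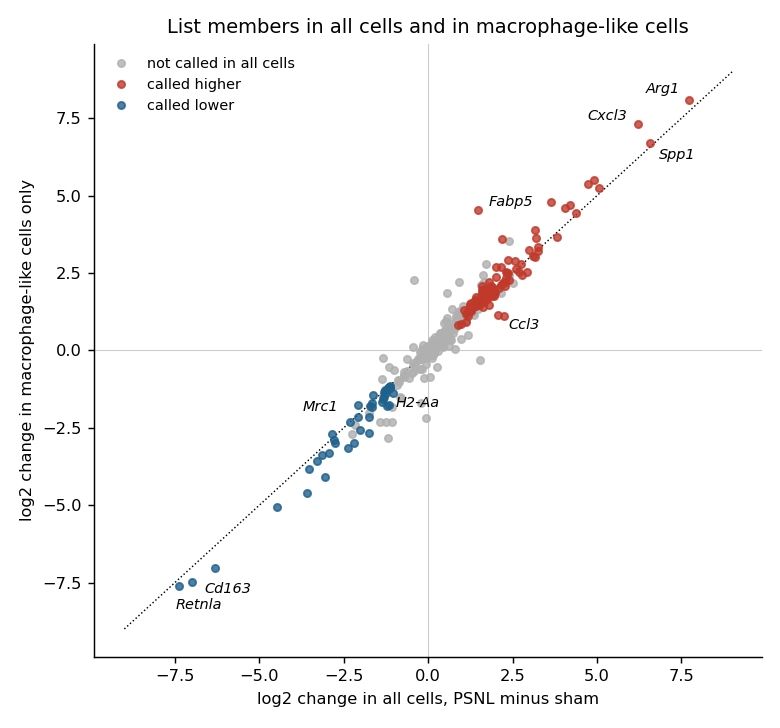
Log2 change (PSNL minus sham) of 313 list members in all cells (horizontal axis) and in macrophage-like cells only (vertical axis), 1 point per gene, red and blue for genes called higher or lower in all cells. Points near the dotted line of equal change have the same difference in both fits. Fabp5 lies above the line (1.48 in all cells and 4.53 in macrophage-like cells) and Ccl3 below it (2.07 and 1.15).

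Fabp5 was the list member whose values shifted most between these fits among those called in all cells. In macrophage-like cells it was at 1782 and 1336 CPM after PSNL and 71.9 and 64.3 CPM after sham (log2 change 4.53 ± 0.25, adjusted p = 0.000157), so that the gap to sham was wider than in all cells while the PSNL values were close to those above. Egr1, an immediate early gene, was near level in all cells (log2 change -0.22 ± 0.32) and lower in macrophage-like cells, at 42.7 and 40.0 against 160 and 117 CPM (log2 change -1.68 ± 0.23, adjusted p = 0.00414). Il1b, not called in all cells, was at 327 and 741 against 88.5 and 195 CPM (log2 change 1.82 ± 0.45, adjusted p = 0.0375). Differences between the 2 fits were not tested.

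Shares of cells with a UMI were set beside these sums. Each macrophage-like cell was thinned to 2000 UMIs, and shallower cells were left out, which left 241 and 490 cells after PSNL and 37 and 56 after sham. Spp1 was found in 68.0% and 69.6% of these cells after PSNL and in 8.11% and 3.57% after sham, against 32.3% of the 130 thinned neutrophil-like cells of the 4 samples. Arg1 was found in 45.6% and 54.5% after PSNL and in 0 of 37 and 0 of 56 cells after sham. At this depth, 3 cells with a UMI would be shares of 8.11% and 5.36%, which limits cells with a UMI and not cells that express the gene. Vegfa was found in 23.7% and 40.4% against 2.70% and 0 of 56 cells, and Thbs1 in 44.4% and 44.9% against 2.70% and 3.57%. In the opposite direction, Mrc1 was found in 28.2% and 22.0% after PSNL and in 83.8% and 80.4% after sham, Mgl2 in 0 of 241 cells and 0.816% against 67.6% and 62.5%, and Cd163 in 0 of 241 cells and 0.204% against 43.2% and 46.4%. H2-Aa was found in 37.3% and 43.3% against 94.6% and 87.5%. Without thinning, shares were 73.8 and 77.0% after PSNL and 20 and 5.97% after sham for Spp1, 55.5 and 62.8% after PSNL and 6.00 and 0% after sham for Arg1, 39.2 and 56.2% after PSNL and 2.00 and 2.99% after sham for Vegfa and 54.4 and 55.5% after PSNL and 2.00 and 5.97% after sham for Thbs1. They were 46.0 and 40.7% after PSNL and 90.0 and 83.6% after sham for Mrc1, 1.14 and 1.73% after PSNL and 74.0 and 79.1% after sham for Mgl2, 0.76 and 0.576% after PSNL and 56.0 and 62.7% after sham for Cd163 and 46.8 and 54.1% after PSNL and 92.0 and 88.1% after sham for H2-Aa. The 95% binomial intervals of the thinned shares count cells and do not measure the spread between hashtag samples. The genes shown were chosen with earlier results of these data known. Neutrophil-like cells, which should lack macrophage genes, showed Mrc1 in 11.5%, H2-Aa in 22.3% and Arg1 in 13.1% of the 130 thinned cells. Without thinning, over all 281 such cells, these shares were 10.3%, 18.5% and 8.19%. Thbs1 was found in 63.1% of the thinned neutrophil-like cells, above its shares in macrophage-like cells after PSNL, and Vegfa in 14.6%. Without thinning these 2 genes were found in 58.0% and 19.6% of neutrophil-like cells. Part of any share can be free RNA or doublets, and neither was tested. With 2 samples a group an exact permutation test cannot go below p = 0.333, and no test was made on these shares.

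**Figure D5:**
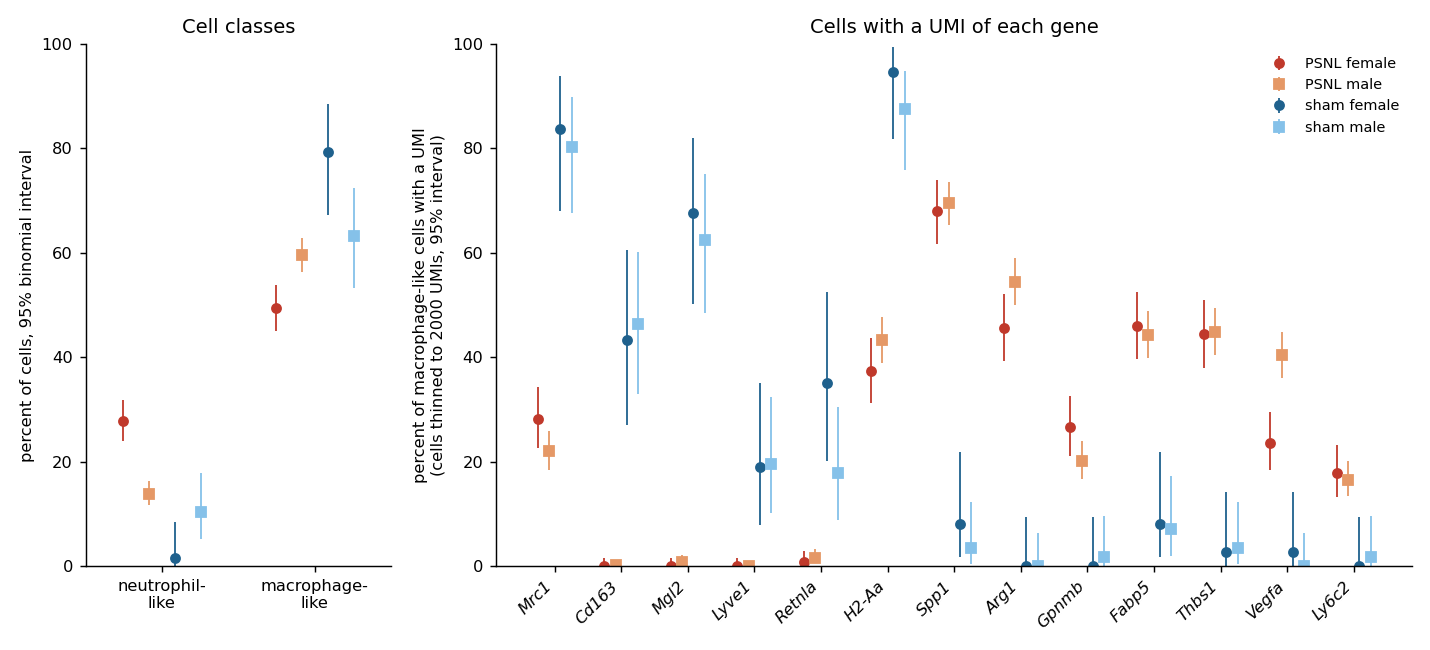
Left, percent of cells that were neutrophil-like or macrophage-like in each hashtag sample. Right, percent of macrophage-like cells, thinned to 2000 UMIs, with at least 1 UMI of each gene. Bars are 95% exact binomial intervals for counting error only, with symbols as in the plot of levels. They count cells and do not measure the spread between hashtag samples. The sham bars are wide because 37 and 56 cells were left.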

How the data were processed

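The authors aligned 10x reads with Cell Ranger 6.0.0, and the submitters' processing notes also name Seurat 5.1.0 and GRCm38. The deposited values are raw UMI counts per gene and per hashtag for each barcode. Gene places came from GENCODE M21. Hashtags were positive above 50, 85 and 93 UMIs in the PSNL library and above 42, 115 and 123 UMIs in the crush library. Barcodes with several positive hashtags were left out as doublets, and no doublet caller was run. Summed counts were filtered with filterByExpr, scaled by TMM and tested in edgeR 4.0.16 (quasi-likelihood test, R 4.3.3, limma 3.58.1) with Benjamini-Hochberg adjustment at 0.05, using 2 samples a group and no covariate. DESeq2 1.42.0 was an alternative. Figures used matplotlib 3.10.9. On simulated data with 8333 genes for this comparison, the test recovered 13% of 100 genes changed 2-fold and 65% of 100 changed 4-fold, with 5 false calls of 83. Replicates differed beyond sampling noise (chi-square per degree of freedom 9.10 for PSNL and 4.88 for sham). Named genes were members of 34 lists, genes the study discusses for mouse nerve, and the 15 largest rises and falls among called genes without overlap and with a mean of at least 50 CPM in the higher group. The members and lists were chosen with earlier results of these data known, so their counts hold for list members and not for all genes of a function. Intervals cover counting error only.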

Additional observations from a re-analysis of the deposited data

Results flagged for a closer look

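The change from sham to PSNL was also taken within each sex, as the median over list members of the log2 ratio of levels. For alternative activation genes it was 0.56 in females and -0.92 in males, 1.48 apart. Neutrophil markers gave 4.31 in females and -0.30 in males, 4.61 apart, beside neutrophil-like shares of 27.8% against 1.59% in females and 13.8% against 10.4% in males. For dendritic cell markers it was 0.33 in females and -1.23 in males, 1.56 apart. These were the lists with at least 5 tested members whose female and male medians had opposite signs and were each at least 0.25 in size. Each sex has 1 sample a group and the male comparison crosses 2 libraries, so the difference was not tested.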

How the results depend on the processing

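No gene called among the 4 samples changed direction under any alternative in which it was tested, which was largely fixed in advance, as said above. With sex as a block, which sets each PSNL sample against the sham sample of the same sex and does not pair animals, 317 genes were higher and 211 lower, and 460 of the 555 calls were made again, with 153 of 166 called named genes among the calls. Leaving out 1 sample at a time gave 0 to 571 genes higher and 0 to 433 lower, the 0 being without the sham male in each case. Over these fits members called ranged from 0 to 16 for resident macrophage genes (lower), 0 to 10 for MHC class II genes (lower), 0 to 13 for Spp1 and lipid genes, 0 to 11 for inflammatory genes, 0 to 13 for chemokines, 0 to 15 for glycolysis and hypoxia genes, 0 to 11 for antioxidant genes, 0 to 12 for matrix genes, 0 to 11 for lysosome genes, 0 to 13 for interferon-stimulated genes and 0 to 7 for monocyte markers. List medians over the same fits ranged from 1.79 to 2.28 (Spp1 and lipid), 1.32 to 2.77 (inflammatory), 1.04 to 1.82 (chemokine), 1.43 to 2.32 (antioxidant), 1.32 to 2.28 (matrix), 0.91 to 1.20 (lysosome) and 2.01 to 4.73 (monocyte markers).

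With 6 samples and library as a term, 46 genes were higher and 49 lower. Members called were 6 for Spp1 and lipid genes (median 2.27), 5 for inflammatory genes (median 2.76), 4 for chemokines, 2 for MHC class II genes, 4 for glycolysis and hypoxia genes, 2 for antioxidant genes (median 2.30), 3 for matrix genes, 1 for lysosome genes (median 1.18), 0 for interferon-stimulated genes and 1 for monocyte markers (median 4.71). The same fit without neutrophil-like cells, an alternative chosen after seeing the data, gave 71 higher and 78 lower. Its members called were 7 for Spp1 and lipid genes (median 2.36), 5 for inflammatory genes, 2 for chemokines, 2 for MHC class II genes, 5 for glycolysis and hypoxia genes, 1 for antioxidant genes (median 2.32), 3 for matrix genes, 3 for lysosome genes (median 1.18), 0 for interferon-stimulated genes and 1 for monocyte markers (median 5.97). Both fits with the library term set the PSNL samples against the sham female alone, since the sham male only sets the library difference. With 6 samples and no library term, 0 interferon-stimulated genes and 2 monocyte markers were called.

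With no filter on low counts 647 genes were higher and 370 lower, with 14 matrix members and a lysosome median of 1.00. A looser cell filter gave 521 and 386, with medians of -1.13 (MHC class II) and 0.87 (lysosome). Macrophage-like cells alone gave 496 and 413, with medians of 2.16 (Spp1 and lipid), -1.71 (MHC class II) and 1.29 (lysosome, 14 members). Samples thinned to the smallest total gave 175 and 88, with a lysosome median of 0.85 and 7 interferon-stimulated genes. Without the cells with the most UMIs the medians were 1.25 (Spp1 and lipid), 1.88 (glycolysis and hypoxia) and 0.83 (lysosome). The median of all genes was 0.24 with no filter and 0.10 with the library term. The cause of these shifts was not tested.

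DESeq2 kept 146 of 166 called named genes and the library term 56. The sham sums of 246983 and 607505 UMIs limit what can be seen of low genes.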
